A study of Mus musculus with 4 samples.

Results

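AP-1 and Egr immediate early genes were followed in single-cell RNA sequencing data of mouse liver leukocytes: Fos, Fosb, Jun, Junb, Jund, Egr1, Ier2, Ier5, Atf3 and Klf6. These 10 genes were chosen by name, with earlier results of these data known. All 10 were present among the 27998 genes of the count matrices. The livers came from wild-type C57BL/6 mice, and the labels give neither age nor sex. In the exercise group (2 libraries) mice ran at a motorized treadmill speed of 12.5 m/min. Mice of the sedentary group (2 libraries) stayed on a treadmill that stood still, and both groups followed the schedule of 60 min per day, 5 days per week, for 4 weeks. Per the labels' protocols, CD45+ cells were enriched with magnetic beads from collagenase-digested liver, while the series text names sorting. From these cells 10x Genomics 3′ libraries were made, in which each unique molecular identifier (UMI) counts 1 captured RNA molecule. The labels give each library its own serum alanine aminotransferase at harvest, a measure of liver injury, of 26 and 59 U/L after exercise and 33 and 56 U/L without it. They do not state whether a library is 1 animal or a pool, so p-values measure the spread between these libraries, whatever its source.

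Immediate early genes are transcribed within minutes of a stimulus, without new protein synthesis, because the factors that switch them on (serum response factor with its Ets cofactors, CREB and related factors) are already bound or are activated by MAP kinases. The Fos and Jun proteins pair through leucine zippers to form AP-1, Egr1 is a zinc-finger factor induced alongside them, and short-lived mRNAs and induced phosphatases end the response. In liver macrophages these factors take part in responses to microbial products and to tissue injury, and they are also known to be induced by enzymatic cell dissociation.

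The 4 libraries held between 10050976 and 14849778 UMIs, and 14560 of 15383 barcodes were kept as single cells. Cells were grouped into 26 clusters, without using the 10 genes, and each cluster was named from marker genes, so that "Kupffer-like" means a cluster that carries the markers of Kupffer cells, the resident liver macrophages. The Kupffer-like class held 6015 cells (1272 and 1830 after exercise, 1456 and 1457 in the sedentary group), and each of its clusters, taken as a whole, had all 12 Kupffer markers detected, Clec4f, Vsig4 and Timd4 among them. In all, 11 classes had at least 20 cells in every library and were compared. Liver sinusoidal endothelial (LSEC)-like cells were among them although the label names CD45+ leukocytes. Between 11 and 31 cell barcodes were shared by each pair of libraries. RNA from hepatocytes differed between the groups: 10 hepatocyte markers summed to 153 and 119 CPM (UMIs of a gene per 1000000 UMIs of that class in a library) in Kupffer-like cells after exercise, against 1519 and 737 CPM in sedentary mice. Red-cell transcripts stood at 98.1 and 297 CPM against 2675 and 918 CPM.

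For the genes on which the comparisons between classes turn, 4 promoters are given: those of Fosb and Junb, called lower in T-like cells, and those of Fos and Ier5, whose change differed between classes. Each run is the 150 bases before the annotated start from RefSeq (GRCm38.p6), written 5′ to 3′ on the gene's strand, with motif matches in capitals. RefSeq starts can differ from the GENCODE gene bounds given below.
Fos, chr12:85473740-85473889, plus strand: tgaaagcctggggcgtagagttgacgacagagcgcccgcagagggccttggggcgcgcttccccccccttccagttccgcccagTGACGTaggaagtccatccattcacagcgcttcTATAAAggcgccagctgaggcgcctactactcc
Fosb, chr7:19310046-19310195, minus strand: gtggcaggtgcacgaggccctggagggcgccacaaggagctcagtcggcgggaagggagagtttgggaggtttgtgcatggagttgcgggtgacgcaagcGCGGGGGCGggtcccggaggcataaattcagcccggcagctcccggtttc
Junb, chr8:84978749-84978898, minus strand: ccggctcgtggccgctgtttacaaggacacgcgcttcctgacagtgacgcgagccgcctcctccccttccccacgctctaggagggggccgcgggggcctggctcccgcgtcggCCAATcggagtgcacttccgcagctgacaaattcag
Ier5, chr1:155099637-155099786, minus strand: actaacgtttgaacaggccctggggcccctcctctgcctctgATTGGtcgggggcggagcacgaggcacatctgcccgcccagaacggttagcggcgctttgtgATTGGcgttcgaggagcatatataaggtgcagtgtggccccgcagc
The capitals mark a CRE core site (TGACGT) and a TATA box (TATAAA) in Fos, an Egr-type site (GCGNGGGCG) in Fosb, and CCAAT boxes (CCAAT or its reverse ATTGG) in Junb and Ier5. The Fos core site began 66 bases and its TATA box 33 bases before the start, and the Fosb site began 50 bases before it. Windows were available for 8 of the 10 genes (all but Egr1 and Ier2), searched over 250 bases before the start on both strands. Sites farther upstream, and any in Egr1 and Ier2, were not searched. The Jund window was set by a RefSeq start other than the GENCODE one: its last base before the start was 70697738, against a gene start of 70698949. So was that of Atf3, on the minus strand: its last base before the start was 191183334, against a GENCODE gene end of 191218039. The core site was found in 2 of 8 (Fos and Atf3), against 6.47% of 32851 windows in the genome table, and the Egr-type site in 1 of 8 against 4.70%. The exact letters TATAAA were in 1 of 8 against 12.4%, and the CCAAT box in 4 of 8 (Jun, Junb, Ier5, Klf6) against 33.8%. Only matches to a fixed pattern per motif were counted. Variant forms of a site were therefore missed, such as tatataa in the Ier5 run. The full CRE (TGACGTCA), the AP-1 site (TGANTCA) and the CArG box, to which serum response factor binds, were each in 0 of 8, against 1.55%, 6.75% and 1.47% of windows. The full CRE contains the core site. An NF-kB motif was in 2 of 8 (Fos and Fosb) against 7.25%.

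In Kupffer-like cells the fitted change of all 10 genes was negative after exercise, as for 49.7% of the 9873 genes tested. In 9 of them both exercise libraries lay below both sedentary libraries, which was so for 16.8% of all genes. Egr1 passed the test and was the only member to do so, whereas 0.476% of all genes were called lower. The median fitted change of the 10 genes was -0.50 on the log2 scale, and that of all genes was 0.0017. Egr1 (ENSMUSG00000038418, 3 exons, chromosome 18, 34859823 to 34864984, plus strand, GRCm38) encodes the zinc-finger factor that gives the family its name. Its level was 296 and 282 CPM after exercise, against 450 and 519 CPM in sedentary mice, from 1186, 1687, 1576 and 2248 UMIs. The groups were well apart, with means of 289 ± 10.1 CPM (SD, n = 2) and 485 ± 48.9 CPM (SD, n = 2). On the log2 scale Egr1 fell by 0.75 (SE 0.118, adjusted p = 0.0353 in edgeR's quasi-likelihood test with Benjamini-Hochberg adjustment over all genes). The call was lost when exercise replicate 1 (adjusted p = 0.263 in edgeR), exercise replicate 2 (0.256) or sedentary replicate 2 (0.118) was left out, and over all kept cells (0.237).

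**Figure D1:**
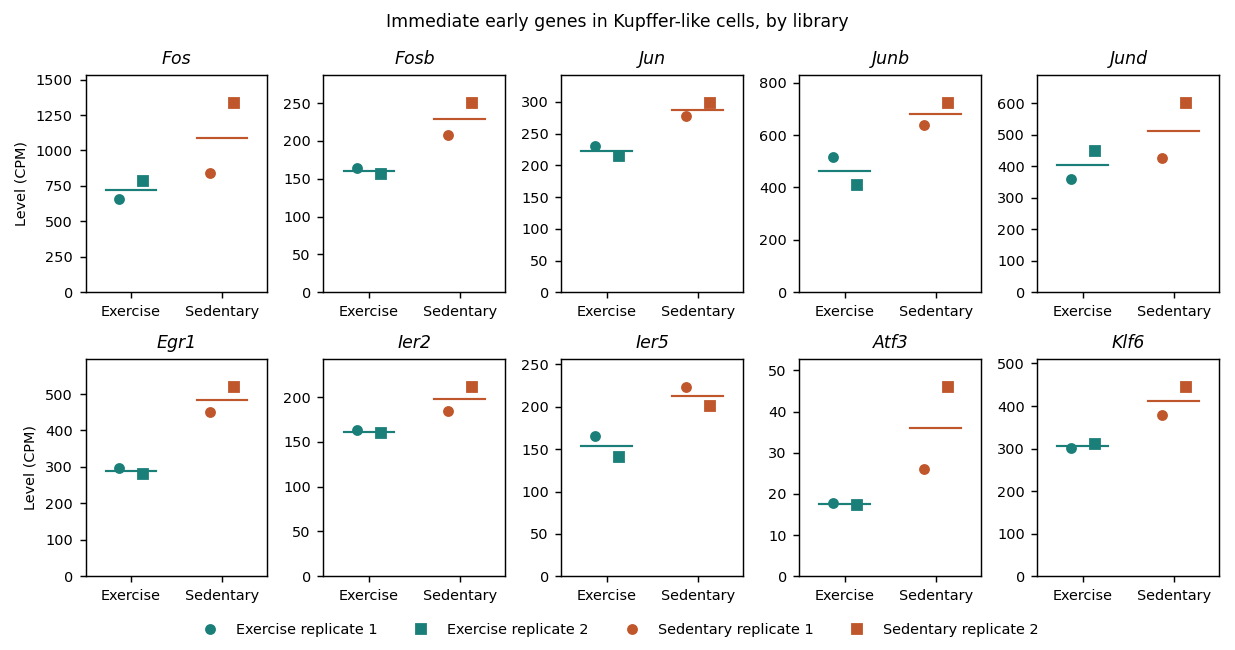
Level of each of the 10 genes in Kupffer-like cells (y axis, CPM, starting at 0 and scaled per gene) in the exercise and sedentary libraries (x axis) with points for libraries and short lines for group means (n = 2). Both exercise points lie below both sedentary points for every gene but Jund.

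The Fos-family genes encode partners that need a Jun protein to bind DNA. Fos (chromosome 12, 85473890 to 85477273, plus strand, 4 exons) stood at 656 and 782 CPM after exercise, against 843 and 1336 CPM in sedentary mice. Sedentary replicate 2 was far above the other sedentary library, and the fitted change of -0.61 (SE 0.212) did not pass (adjusted p = 0.733 in edgeR). It was -0.19 without sedentary replicate 2 and -0.92 without sedentary replicate 1. Fosb (chromosome 7, 19302696 to 19310051, minus strand, 5 exons) was at 164 and 157 CPM against 208 and 250 CPM, a change of -0.52 (SE 0.129, adjusted p = 0.279 in edgeR). For Fosb the exercise libraries lay close together and below both others.

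Of the Jun family, Jun and Junb did not overlap between groups and Jund did. Jun (chromosome 4, 95049034 to 95052222, minus strand, a single-exon gene) was at 230 and 215 CPM against 278 and 299 CPM (log2 change -0.38, SE 0.108, adjusted p = 0.459 in edgeR). Junb (chromosome 8, 84974484 to 84978718, minus strand), whose product often restrains Jun, was at 516 and 410 CPM against 639 and 723 CPM, a change of -0.56 (SE 0.133, adjusted p = 0.235 in edgeR). Jund (chromosome 8, 70698949 to 70700616, plus strand, a single-exon gene), the Jun gene known for steady expression in resting cells, was at 360 and 448 CPM against 426 and 601 CPM. Its exercise replicate 2 exceeded sedentary replicate 1, and the change of -0.35 (SE 0.187) had an adjusted p of 0.961 in edgeR.

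The remaining members code for proteins outside the Fos, Jun and Egr families. Atf3 (chromosome 1, 191170296 to 191218039, minus strand), a stress-induced zipper factor that represses inflammatory genes in macrophages, was at 17.7 and 17.2 CPM against 26.0 and 46.0 CPM. Its fitted change of -1.07 (SE 0.263, adjusted p = 0.273 in edgeR) rested on 71, 103, 91 and 199 UMIs. Without sedentary replicate 2 it was -0.54, and the changes of Fosb, Jund, Ier2 and Klf6 were -0.34, -0.037, -0.16 and -0.27. Klf6 (chromosome 13, 5861482 to 5870394, plus strand), a zinc-finger factor of the Krüppel-like family, was at 301 and 312 CPM against 379 and 445 CPM (log2 change -0.43, adjusted p = 0.453 in edgeR). Ier2 (chromosome 8, 84661331 to 84662852, minus strand) was at 163 and 159 CPM against 184 and 211 CPM. Ier5 (chromosome 1, 155096361 to 155099636, minus strand) was at 166 and 140 CPM against 223 and 201 CPM. Ier2 and Ier5, nuclear proteins of a small related family, had fitted changes of -0.30 and -0.47, and neither passed (adjusted p = 0.837 and 0.254 in edgeR). At an unadjusted p under 0.05, 9 of the 10 genes were lower in edgeR, all but Jund, against 3.36% of all genes.

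Hepatocyte and red-cell RNA moved with the groups, so the members were also read in the Kupffer-like cells without any hepatocyte UMI (836 and 1312 cells after exercise, 173 and 323 in the sedentary group). Egr1 was then at 300.1 and 291 CPM against 415 and 536 CPM. Its change of -0.68 was close in size, on far fewer sedentary cells, and the call was lost (adjusted p = 0.440 in edgeR). Junb was at 530 and 415 CPM against 698 and 708 CPM in these cells, and Fos at 656 and 784 CPM against 839 and 1337 CPM. Both exercise libraries stayed below both others for every member but Jund. The share of all genes separated in this way is not given for these cells, so this order has no background here. The fitted changes of Fosb, Ier2 and Jund were smaller in these cells, at -0.31, -0.17 and -0.23. Mitochondrial transcripts made up 6.24% ± 0.301 (SD, n = 2) of UMIs in exercise Kupffer-like cells and 7.56% ± 0.802 (SD, n = 2) in sedentary ones, and their part in the result was not tested.

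The Kupffer-like class was made of 4 clusters, and the levels of the 10 genes differed between those clusters. In the largest cluster (2889 cells, led by Apoc1, Fcna and Clec4f) Egr1 was at 257 and 243 CPM after exercise, against 443 and 496 CPM in sedentary mice. Fitted alone, that cluster gave a change of -0.89 for Egr1 (SE 0.117, adjusted p = 0.0059 in edgeR). In the second cluster (2273 cells, led by BC005537, Plekhm2 and Hmox1), which had a median of 10.6% mitochondrial UMIs against 5.67% in the first, Egr1 was at 449 and 454 CPM against 626 and 772 CPM (log2 change -0.63, adjusted p = 0.238 in edgeR). Both clusters held the order of the groups for Egr1, and the second was higher in every library.

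The third cluster (721 cells, led by Cxcl13, Gm10116 and C1qb) was the lowest of the 4 for all 10 genes and did not separate the groups for any of them. Fosb there averaged 12.9 CPM over the 4 libraries, against 190 and 266 CPM in the first and second clusters. Egr1 was at 70.8 and 25.0 CPM after exercise, against 30.9 and 34.4 CPM in sedentary mice, on a median of 1400 UMIs per cell. More of these cells came from the sedentary libraries (231 and 229) than from the exercise libraries (104 and 157). The fourth cluster (132 cells) was led by the chemokine genes Cxcl9 and Cxcl10 and by Gbp5, which interferon-gamma is known to induce. Egr1 was at 362 and 309 CPM after exercise, against 520 and 531 CPM in sedentary mice, in this cluster. For Fosb, Ier2, Ier5, Atf3, Klf6 and Jund its libraries overlapped between groups.

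**Figure D2:**
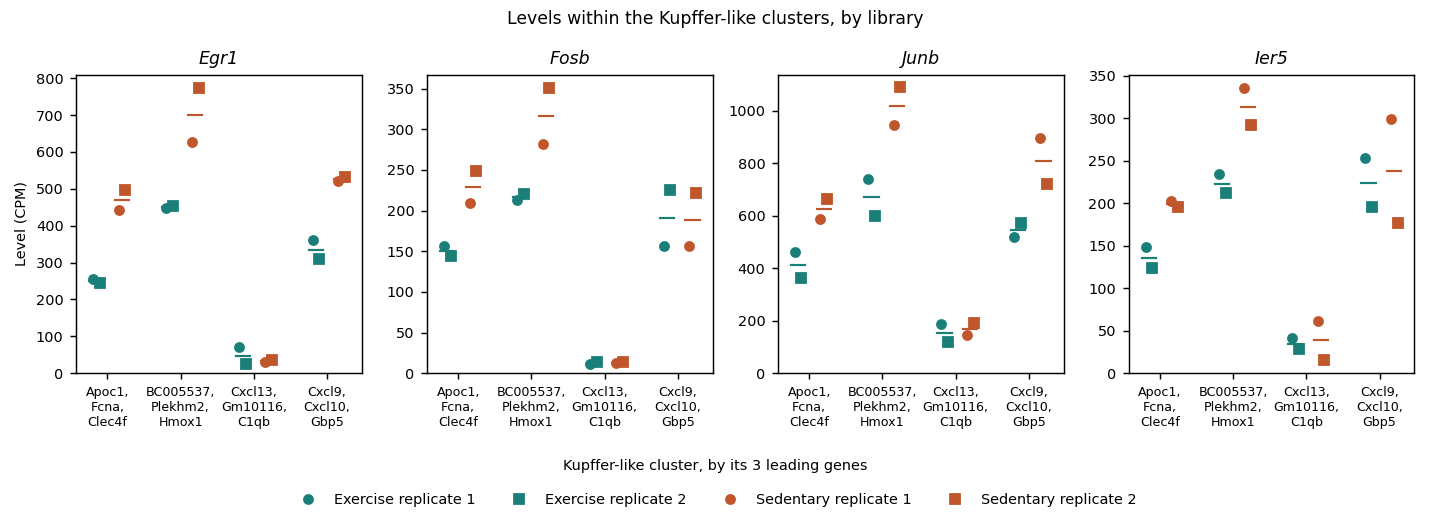
Levels of Egr1, Fosb, Junb and Ier5 (y axis, CPM) in the 4 Kupffer-like clusters, named by their 3 leading genes (x axis) with points for libraries and short lines for group means (n = 2). The third cluster is low for all 4 genes, and exercise points lie below sedentary points in the first and second clusters.

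The share of Kupffer-like cells with a UMI of a gene depends on depth, which differed between libraries (a median of 2572 and 2724 UMIs after exercise, 2026 and 2457 in the sedentary group), so each cell was thinned to 1000 UMIs. Thinning left out 62 sedentary cells and no exercise cell. Egr1 was then found in 26.8% (exact binomial 95% interval 24.4 to 29.3) and 25.4% (23.4 to 27.4) of cells after exercise. In the sedentary libraries it was found in 35.1% (32.6 to 37.6) and 40.01% (37.5 to 42.6). Before thinning the Egr1 shares were 53.9% and 52.3% against 56.1% and 66.5%. The intervals cover counting error only, and with 2 libraries a group the smallest p an exact two-sided permutation test can reach is 0.333, the value found for Egr1. Plasmacytoid dendritic (pDC)-like cells, the class with the lowest Egr1 level, gave thinned shares of 2.0%, 1.09%, 1.16% and 2.70% in the same library order, at median depths of 4709, 4821, 3817 and 4154 UMIs.

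After thinning, both exercise libraries lay below both sedentary libraries for 8 of the 10 genes, against 15.3% of the genes tested. The exceptions were Fos, at 47.7% and 52.6% of cells against 50% and 65.8%, and Jund, at 30.8% and 35.5% against 32.8% and 44.7%. Junb was found in 41.9% and 35.1% of cells after exercise, against 46.2% and 49.6% in sedentary mice. Without thinning 3 of the 10 shares were separated in this way (Egr1, Ier5 and Atf3), against 3.0% of all genes, and at 1500 UMIs 9 were, against 16.1%. Counted per cell at equal depth, an average of 2.39 and 2.38 of the 10 genes had a UMI after exercise, against 2.73 and 3.17 in sedentary mice. At least 5 of the 10 genes were carried by 7.39% and 9.29% of exercise cells, against 15.2% and 23.8% of sedentary cells. Such a share depends on the mean, and counts per cell for other sets of genes are not given. Cells with none of the 10 were about as frequent in all libraries, at 9.12% and 10.2% against 10.5% and 8.17%.

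**Figure D3:**
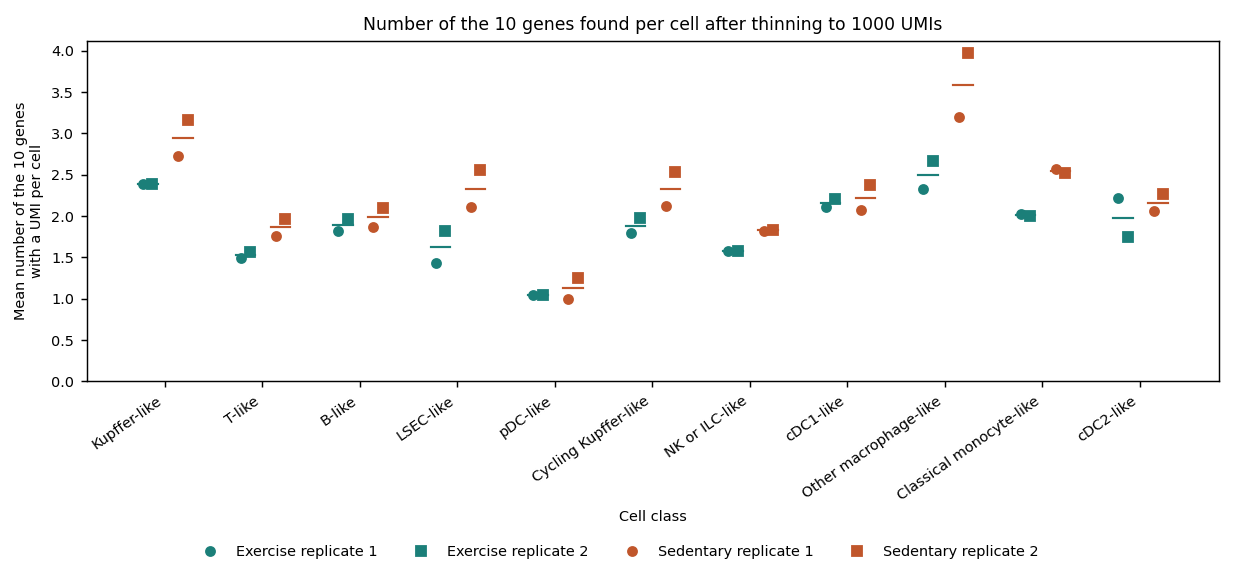
Mean number of the 10 genes with a UMI per cell after thinning to 1000 UMIs (y axis) in 11 cell classes (x axis) with points for libraries and short lines for group means (n = 2). Other macrophage-like and Kupffer-like cells are highest and pDC-like cells lowest, at 1.00 to 1.25.

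The 10 genes did not share 1 pattern over the 11 classes. Levels are given as the mean CPM over the 4 libraries with the SD, and describe the classes without a test. Egr1 was highest in Kupffer-like cells (387 ± 117, SD, n = 4), followed by other macrophage-like cells (297 ± 143), cycling Kupffer-like cells (292 ± 122) and conventional dendritic type 1 (cDC1)-like cells (191 ± 66.1). Then came LSEC-like (169 ± 48.8), cDC2-like (107 ± 32.0), T-like (78.6 ± 35.2), classical monocyte-like (71.6 ± 34.4), NK or ILC-like (52.0 ± 14.4), B-like (32.4 ± 4.69) and pDC-like cells (21.9 ± 5.80). Every neighbouring pair in that order overlapped in its range over libraries, while the top class was 17.6-fold above the lowest. Fosb had its highest level in Kupffer-like cells too (195 ± 43.4) and its lowest in pDC-like cells (20.1 ± 4.25), again with overlapping neighbours.

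Fos, Jun, Junb, Atf3 and Klf6 were highest in the other macrophage-like cells (251 and 68 cells in 2 clusters, led by genes such as Cx3cr1, Tmem119 and Ms4a7). Fos was at 1235 ± 526 CPM (SD, n = 4) there, at 904 ± 298 in Kupffer-like cells and at 768 ± 258 in cycling Kupffer-like cells. Below these came cDC1-like (753 ± 131), classical monocyte-like (683 ± 287), LSEC-like (344 ± 190) and cDC2-like cells (284 ± 44.3). The range of cDC2-like cells (254 to 348 CPM) lay above that of the next class, B-like cells (83.1 to 140), and below it pDC-like, T-like and NK or ILC-like cells lay at 92.6, 87.5 and 83.6 CPM. Jun set the other macrophage-like cells apart, at 672 ± 90.7 CPM with a lowest library of 557, above the 356 CPM of the highest LSEC-like library, the next class. Atf3, which was at 82.8 ± 62.2 CPM in other macrophage-like and 64.7 ± 27.2 in classical monocyte-like cells, was at 2.34 ± 1.72 CPM in B-like cells. Klf6 spanned 4.61-fold, with 484 ± 183 CPM at the top and 105 ± 10.5 in pDC-like cells.

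Junb, Ier2, Jund and Ier5 followed other orders. Junb lay between 524 and 965 CPM in 9 classes whose neighbouring ranges overlapped, then at 344 ± 61.3 in cycling Kupffer-like cells and at 110 ± 25.3 in pDC-like cells, and each of these 2 classes did not overlap in range with the class just above it. The range of cycling Kupffer-like cells (268 to 404) did lie within that of LSEC-like cells (253 to 821). Ier2 was highest in NK or ILC-like cells (309 ± 61.1) and lowest in pDC-like cells (47.7 ± 11.5), with Kupffer-like cells ninth (179 ± 23.9). Jund was highest in B-like cells (1464 ± 199), then NK or ILC-like (982 ± 54.4) and T-like cells (851 ± 44.1), with no overlap at either step, and Kupffer-like cells came next to last (459 ± 102). Ier5 was highest in pDC-like cells (395 ± 50.6), where Egr1, Fosb, Jun, Junb, Ier2 and Klf6 were lowest. Its lowest level was in T-like cells (130 ± 21.8), and cDC1-like cells (325 ± 23.1) were separated from the next class, classical monocyte-like cells (206 ± 17.2).

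**Figure D4:**
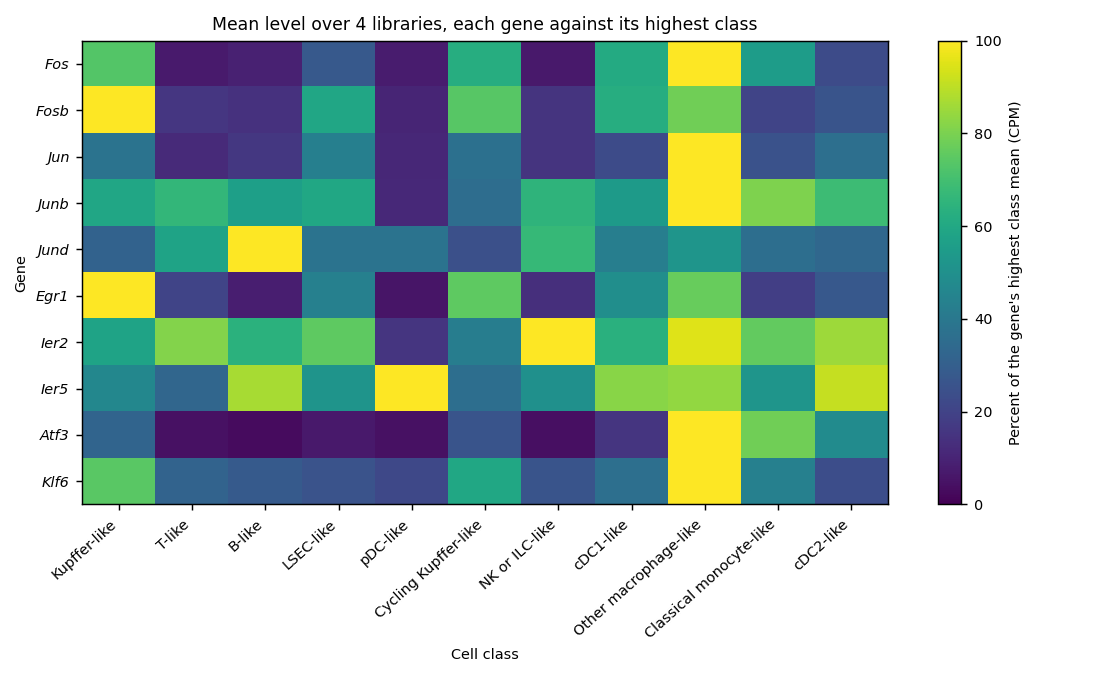
Mean level over the 4 libraries of each gene in each of 11 classes (colour, percent of the gene's own highest class, so that rows are not comparable in level). Egr1 and Fosb peak in Kupffer-like cells, Jund in B-like cells, Ier2 in NK or ILC-like cells and Ier5 in pDC-like cells.

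RNA released from Kupffer-like cells can reach the droplets of other cells, so 6 Kupffer markers (Clec4f, Vsig4, Timd4, Cd5l, Marco and Folr2) were read in each class as a percentage of their level in the Kupffer-like cells of the same library. In T-like cells they were at 2.39% to 3.37%, whereas Egr1 was at 17.8% to 24.6% and Junb at 89.4% to 123% of the Kupffer-like level. Fos and Fosb in T-like cells were nearer to the markers, at 6.13% to 12.0% and 7.12% to 21.5%. In pDC-like cells the markers were at 2.27% to 2.81% and Egr1 at 4.03% to 7.92%. LSEC-like cells carried more of them, 6.28% to 15.3%, against 20.9% to 52.1% for Fos. For each of these genes and classes the lowest library was above the highest value of the markers.

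Each member was also set against the genes averaging at least 20 CPM (5574 genes) by the correlation of its log2 level over the 44 sums of library and class, as a description, since sums share libraries and depth. The other members were left out of these rankings and are given at the end. Egr1 was most like Dusp1, a MAP kinase phosphatase (r = 0.90), then St3gal5 (0.86) and Id1 (0.83). Fosb was most like St3gal5 (0.89), Man2b1 (0.85) and Acvrl1 (0.83), and Fos like Rab32 (0.91), Aif1 (0.91) and Tgfbi (0.90). Junb was nearest to Nab2, an Egr corepressor (0.75), Cotl1 (0.73) and Bcl2a1b (0.72), and Ier2 to Nab2 (0.76), Lfng (0.75) and Cotl1 (0.75). For Jun the nearest were Cxcl16 (0.87), F11r (0.86) and Itgb5 (0.84), for Atf3 Tgfbi (0.87), Ms4a6c (0.87) and Bcl2a1a (0.84), and for Klf6 Pdlim4 (0.86), Cd14 (0.86) and Slc11a1 (0.84). Jund was most like Eif4a2 (0.81), 2510002D24Rik (0.80) and Lamb3 (0.79), and Ier5 like Acox3 (0.78), Mef2c (0.76) and Bcl11a (0.76). Among the members themselves Junb and Ier2 were closest (0.92), then Egr1 and Fosb (0.90), and Fos and Jund were farthest apart (-0.42).

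Outside Kupffer-like cells, the exercise comparison gave 92 tests of a member in a class, of which 2 passed, both in T-like cells and both lower: Junb and Fosb. Of all genes tested in T-like cells 0.120% were called lower. Junb was at 461 and 452 CPM in T-like cells after exercise, against 758 and 890 CPM in sedentary mice, from 792 to 1502 UMIs per library. The groups were far apart, and on the log2 scale Junb fell by 0.91 (SE 0.108, adjusted p = 0.0038 in edgeR). Fosb was at 11.7 and 19.8 CPM against 38.0 and 53.9 CPM, on 20, 39, 58 and 91 UMIs. It fell by 1.58 (SE 0.267, adjusted p = 0.0481 in edgeR), a call that was lost in DESeq2 (0.0624) and at a clustering resolution of 0.5 (adjusted p = 0.0671 in edgeR).

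Of the 9 members tested in T-like cells, 7 were separated downward (both exercise libraries under both sedentary ones), against 13.4% of all genes there, and 1 upward, against 24.3%. The same 7 were lower at an unadjusted p under 0.05 in edgeR, against 3.84% of genes. Fos was at 40.2 and 59.4 CPM against 89.8 and 160 CPM and missed the threshold (log2 change -1.38, adjusted p = 0.0521 in edgeR). Egr1 was at 54.8 and 51.8 CPM against 80.0 and 128 CPM (log2 change -1.03, adjusted p = 0.0725 in edgeR). Ier5 went the other way, with 145 and 151 CPM after exercise, against 104 and 120 CPM in sedentary mice (log2 change 0.35, adjusted p = 0.638 in edgeR). Jund overlapped between the groups and lay between 799.8 and 901 CPM. Kupffer markers in T-like cells, as given above, were of a like size in all 4 libraries. The part of RNA from Kupffer-like cells in the result was not tested. Hepatocyte markers there summed to 19.2 and 20.3 CPM against 256 and 64.0 CPM, and their part in the result was not tested.

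T-like cells were made of 2 clusters, and the sedentary libraries held more of the smaller one (191 and 137 cells against 104 and 113). In the larger cluster (1844 cells, led by Cxcr6, Il4 and Cd40lg) Junb was at 494 and 457 CPM after exercise, against 792 and 944 CPM in sedentary mice. The smaller cluster (545 cells, led by Dapl1, Tcf7 and Cd8b1) had Junb at 333 and 435 CPM against 690 and 716 CPM. The fitted change was -0.91 in the larger (adjusted p = 0.101 in edgeR) and -0.92 in the smaller cluster (adjusted p = 0.0274 in edgeR). Fosb was separated between groups in the larger cluster, at 10.3 and 15.2 CPM against 44.9 and 56.9 CPM, and overlapped in the smaller one, at 17.1 and 38.2 CPM against 23.9 and 44.4 CPM. The difference in Fosb between these clusters was not tested.

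**Figure D5:**
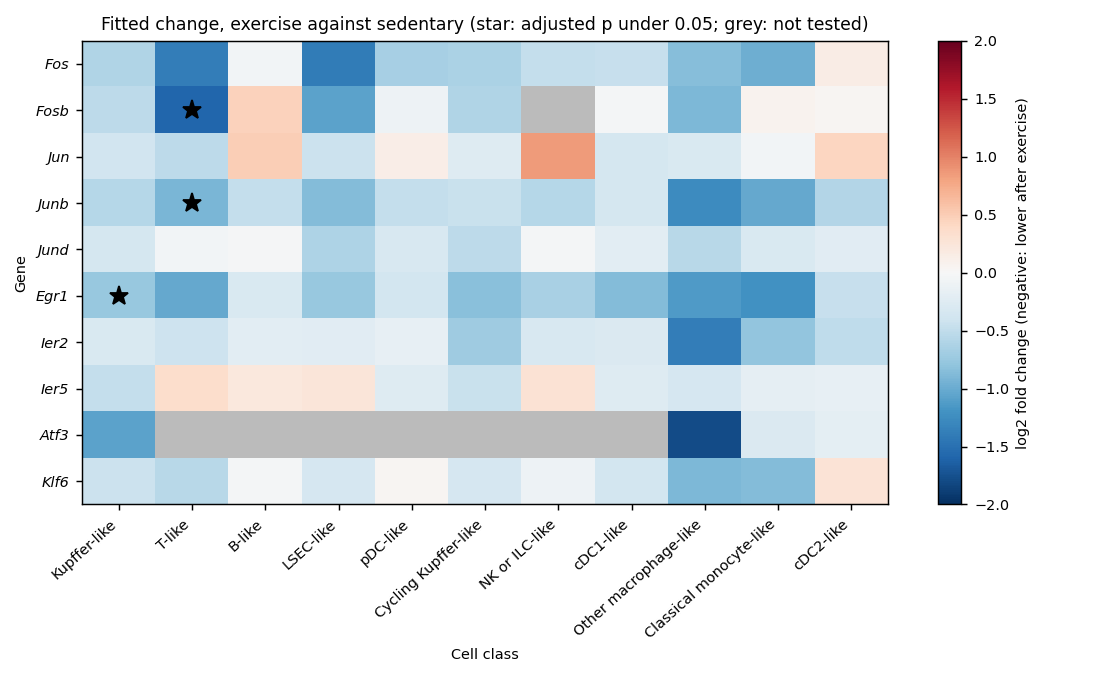
Fitted log2 change of each gene, exercise against sedentary (colour, blue for lower after exercise), in 11 cell classes, with stars for an adjusted p under 0.05 in edgeR and grey for genes too low to test. Junb, Egr1, Ier2 and Jund are negative in all 11 classes, while Jun and Ier5 are positive in 4.

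In other macrophage-like cells (60 and 106 cells after exercise, 76 and 77 in the sedentary group) all 10 genes were separated downward, against 16.7% of the 2953 genes tested. Junb was at 612 and 538 CPM against 1004 and 1705 CPM, and Ier2 at 142 and 182 CPM against 360 and 488 CPM. Neither passed in edgeR (adjusted p = 0.0941 for Junb at a change of -1.26, and 0.070 for Ier2 at -1.39). Atf3 was at 20.2 and 48.5 CPM against 101 and 161 CPM, a change of -1.80 (adjusted p = 0.151 in edgeR). The median change of the members was -0.90 there. Hepatocyte markers summed to 55.6 and 70.3 CPM against 745 and 319 CPM in these cells, and their part in the result was not tested. With 0 members (and 0.00% of genes) called lower in edgeR, 8 of 10 were lower at an unadjusted p under 0.05, against 4.06% of genes, and 1 (Junb) passed in DESeq2.

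LSEC-like cells, which line the sinusoids, had 6 of 9 members with separated groups, against 14.4% of genes, all lower after exercise. Fos was at 137 and 241 CPM against 439 and 559 CPM (log2 change -1.40, adjusted p = 0.0834 in edgeR). No member passed in edgeR, where 0.0157% of genes were called lower, 5 were lower at an unadjusted p under 0.05, against 3.18%, and Fos passed in DESeq2. Hepatocyte markers in LSEC-like cells summed to 158 and 117 CPM against 1349 and 399 CPM, and their part was not tested. Classical monocyte-like cells had Junb at 573 and 450 CPM against 1016 and 1075 CPM (log2 change -1.02, adjusted p = 0.999 in edgeR), with 7 of 10 members separated against 16.3% of genes. Cycling Kupffer-like cells had 8 of 9 tested members separated against 15.2%, with the smallest p for Egr1 at 226 and 202 CPM against 267 and 470 CPM. In cDC1-like cells 4 of 9 were separated against 11.4%, led by Egr1 at 139.5 and 141 CPM against 207 and 279 CPM (log2 change -0.87, adjusted p = 0.220 in edgeR). Red-cell transcripts in cDC1-like cells stood at 19616 CPM in sedentary replicate 1 and at 0 to 2.99 CPM in the other libraries. Hepatocyte markers summed to 266 and 453 against 895 and 460 CPM in classical monocyte-like cells, 89.9 and 77.6 against 1009 and 497 CPM in cycling Kupffer-like cells, and 34.5 and 15.6 against 186 and 76.4 CPM in cDC1-like cells. No member passed in edgeR or in DESeq2 in these last 3 classes, where edgeR called 0.00%, 0.152% and 0.00% of genes lower. At an unadjusted p under 0.05, 5 members were lower in classical monocyte-like (1.32% of genes), 6 in cycling Kupffer-like (2.50%) and 3 in cDC1-like cells (2.87%).

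In B-like cells 3 of 9 members were separated downward, against 15% of genes, and 3 upward, against 19.5%, and the median change was -0.040. Jun was at 134 and 124 CPM in B-like cells after exercise, against 77.9 and 103 CPM in sedentary mice (log2 change 0.50, adjusted p = 0.662 in edgeR). Junb, the member with the smallest p, was at 480 and 444 CPM against 544 and 714 CPM (log2 change -0.48, adjusted p = 0.5002 in edgeR). NK or ILC-like cells had Junb at 591 and 439 CPM against 768 and 706 CPM and Jun at 166 and 103 CPM against 78.6 and 59.8 CPM (adjusted p = 0.672 and 0.866 in edgeR). In pDC-like cells Fos had the smallest p, at 53.3 and 86.7 CPM against 115 and 116 CPM (adjusted p = 0.915 in edgeR), and in cDC2-like cells Junb, at 498 and 560 CPM against 850 and 738 CPM (0.636). In each of these 4 classes 0 members were called in edgeR or in DESeq2, and edgeR called 0.184% of genes lower in B-like and 0.00% in pDC-like, NK or ILC-like and cDC2-like cells. Of the 2 members with an unadjusted p under 0.05 in each, 1 was lower in B-like (2.90% of genes) and in NK or ILC-like cells (2.92%), and 2 in pDC-like (2.52%) and cDC2-like cells (2.79%). NK or ILC-like and pDC-like cells each had 3 members separated downward against 15.6% of genes, and cDC2-like cells 4 against 16.3%. Upward, 2 tested members were separated in NK or ILC-like cells, 1 in cDC2-like and 0 in pDC-like cells. The share of all genes separated upward is not given for these 3 classes.

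Across the 102 tests of a member in a class the fitted change was negative in 88, against 50.2% of all tests of a gene in these classes. Junb was negative in 11 of 11 classes, with both exercise libraries below both sedentary libraries in all 11. Egr1, Ier2 and Jund were negative in 11 of 11 as well, and Egr1 was separated in 9. Jun and Ier5 were positive in 4 of 11 classes each. In a single class, between 11.4% (cDC1-like) and 16.8% (Kupffer-like) of all genes were separated downward. The share of genes separated in as many classes as Junb or Egr1 is not given. Classes share their libraries, so these counts are not independent.

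Whether the change differed between Kupffer-like cells and another class was tested directly for 7 classes, and 3 differences passed. The fitted change of Ier5 was -0.47 in Kupffer-like and 0.35 in T-like cells, a difference of -0.82 (SE 0.165, adjusted p = 0.0125 in edgeR's test of the class by exercise term). That of Fos was -0.61 in Kupffer-like and -1.38 in T-like cells, a difference of 0.77 (SE 0.163, adjusted p = 0.0221 in edgeR). The Fos difference against LSEC-like cells was 0.86 (SE 0.197, adjusted p = 0.0156 in edgeR). Between Kupffer-like and T-like cells 0.126% of genes differed in their change, and 0.254% between Kupffer-like and LSEC-like cells. The Ier5 call was lost without exercise replicate 2 (adjusted p = 0.326 in edgeR) or sedentary replicate 1 (0.261). The Fos call against T-like cells was lost without exercise replicate 1 (0.447 in edgeR) or sedentary replicate 2 (0.126), and that against LSEC-like cells without exercise replicate 1 (0.430) or sedentary replicate 1 (0.206). Over all alternatives run, the Ier5 call was lost in 3 of 11, the Fos call against T-like cells in 3 of 11 and that against LSEC-like cells in 6 of 11. Against B-like cells, where 0.0793% of genes differed, Jun (difference -0.85, adjusted p = 0.0543 in edgeR) and Ier5 (-0.67, adjusted p = 0.0557) missed the threshold. Egr1, by contrast, gave a difference of 0.26 against T-like cells (SE 0.176) and 0.016 against LSEC-like cells (SE 0.212), neither past the test (adjusted p = 0.934 and 1.00 in edgeR). No member passed against pDC-like, NK or ILC-like, cDC1-like or classical monocyte-like cells, where 0.162%, 0.0608%, 0.0311% and 0.149% of genes did.

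Genes that act with the members were read from 6 lists in Kupffer-like and T-like cells. Feedback genes, which encode phosphatases, mRNA decay factors and inhibitors that end immediate early and NF-kB responses, came closest to the members: of 17 tested in Kupffer-like cells 2 were called lower in edgeR (0.476% of all genes) and 0 higher, 3 were called in DESeq2, and their median change was -0.48. At an unadjusted p under 0.05 in either direction there were 10, against 5.39% of all genes. Tnfaip3, a ubiquitin-editing inhibitor of NF-kB signalling, was at 18.2 and 22.0 CPM after exercise, against 47.4 and 69.6 CPM in sedentary mice. It fell by 1.54 (SE 0.215, adjusted p = 0.0248 in edgeR). Nfkbiz, an inducible nuclear IkB protein, was at 84.1 and 92.8 CPM against 146 and 178 CPM and fell by 0.88 (SE 0.142, adjusted p = 0.0412 in edgeR). Ppp1r15a, which helps to reverse the block on translation under stress, was at 50.7 and 51.9 CPM against 74.6 and 87.1 CPM, and Nfkbia, the main cytoplasmic IkB, at 381 and 431 CPM against 577 and 733 CPM (adjusted p = 0.115 and 0.144 in edgeR). Of 18 tested in T-like cells 2 were called lower in edgeR (0.120% of all genes) and 0 higher, 1 was called in DESeq2, and the median was -0.56. At an unadjusted p under 0.05 there were 11, against 6.66% of all genes. Tnfaip3 was called lower there too (log2 change -1.78, adjusted p = 0.0481 in edgeR), as was Zfp36l2, an mRNA decay factor, at 407 and 518 CPM against 756 and 1491 CPM. In Kupffer-like cells Zfp36l2 had the opposite order, 255 and 195 CPM against 172 and 157 CPM, and the difference between the classes was 1.71 (adjusted p = 5.2e-08 in edgeR).

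Target genes of AP-1 and Egr1 had 0 of 14 tested members called in Kupffer-like cells in edgeR, 6 at an unadjusted p under 0.05 (5.39% of all genes, here and for the lists that follow) and 1 called in DESeq2, with a median change of -0.38. The chemokine gene Ccl3 was at 80.6 and 92.2 CPM against 143 and 176 CPM (log2 change -0.89, adjusted p = 0.0511 in edgeR). Cxcl2, which attracts neutrophils, was at 64.6 and 58.6 CPM against 91.1 and 165 CPM, Il10 at 5.74 and 6.18 CPM against 10.0 and 12.0 CPM, and Ccl4 at 78.1 and 104 CPM against 113 and 273 CPM. These 4 genes were named for the smallest p of the 14 tested, so their downward separation follows largely from that choice. Such separation held for 16.8% of all genes in Kupffer-like cells, and none of the 4 passed in edgeR.

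Other lists had medians nearer to 0. Of 12 other AP-1 subunits and dimer partners tested in Kupffer-like cells 0 passed in edgeR or DESeq2 and 4 had an unadjusted p under 0.05 (median change -0.044). Among these Jdp2 and Atf4 were lower after exercise, and Batf3 was at 156 and 149 CPM against 134 and 114 CPM. Among 11 other Egr, Nr4a and Klf genes 0 passed in either tool and 4 had an unadjusted p under 0.05 (median -0.21). Myc, Csrnp1 and Ier3 were lower after exercise there and Klf2 was higher, at 747 and 620 CPM against 517 and 545 CPM. Klf2, a factor that keeps macrophages and T cells quiescent, stood at 227 and 267 CPM against 537 and 360 CPM in T-like cells, and its change differed between Kupffer-like and T-like cells by 1.24 (adjusted p = 3.1e-06 in edgeR).

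The genes that induce the members (MAP kinases, serum response factor with its cofactors, CREB) had 0 of 18 past the test in Kupffer-like cells in edgeR or DESeq2, 1 (Mapk14) at an unadjusted p under 0.05 and a median of -0.027. In T-like cells 0 genes of the other 5 lists passed in edgeR, and 1 (among the Egr, Nr4a and Klf genes) passed in DESeq2. In the order AP-1 partners, Egr and Klf genes, inducers, targets and heat shock genes, 0, 2, 2, 3 and 1 had an unadjusted p under 0.05 there, against 6.66% of all genes. In Kupffer-like cells Elk3, Mkl1 and Mapk9 were next by p, with changes of 0.30, -0.34 and -0.14. Heat shock genes that warm enzymatic digestion is known to induce had 0 of 12 past the test in either tool, 2 (Hspa5 among them) at an unadjusted p under 0.05 and a median of -0.26. Hspa1a, the most inducible of them, was at 26.7 and 50.9 CPM after exercise, against 30.3 and 98.0 CPM in sedentary mice, with overlap, and Hspd1 at 63.9 and 72.8 CPM against 84.0 and 75.8 CPM. How the heat shock genes bear on the members' levels was not tested, and a difference between the livers and one that arose during digestion cannot be told apart in these data.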

How the data were processed

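Single-cell RNA-seq of hepatic CD45+ cells from 2 exercise and 2 sedentary libraries was read from count matrices. Per the submitters' processing notes, the deposited UMI counts were made with Cell Ranger (version not given) on mm10 (GRCm38), and Seurat 3.1 is named. Per the labels' protocols cells came from collagenase digestion and CD45 beads, while the series text names sorting. Introns may count, since the series text names a pre-mRNA reference.

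Barcodes under 500 UMIs or 200 genes, or over 20% in mitochondrial UMIs, were dropped (cells kept: 2849, 4078, 3896 and 3737), and 460 doublets were removed by a neighbour score. Clustering (2000 variable genes, 30 components, 20 neighbours, Leiden resolution 1; Python 3.11.15, scikit-learn 1.9.0, leidenalg 0.10.2) left out 59 member and list genes. Centring per library and leaving out 47 hepatocyte and erythroid genes were decided after seeing the data. Clusters were named from marker genes, so classes may differ from the authors' own.

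Sums of raw UMIs per library and class entered edgeR 4.0.16 in R 4.3.3 (quasi-likelihood F-test, TMM, filterByExpr, Benjamini-Hochberg over all genes, threshold 0.05), checked on simulated data. DESeq2 1.42.0 was an alternative. Differences between classes used the class by exercise term with library as a block. Replicates differed beyond sampling noise (chi-square per degree of freedom 8.21 and 6.05). Gene positions are from GENCODE on GRCm38.

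The members and lists were chosen with earlier results of these data known. The text names all members in Kupffer-like cells, in other classes those past the test or with the smallest p, up to 4 genes per list by p in Kupffer-like cells, and the 3 genes most like each member. Other members named in a class, and Zfp36l2 and Hspa1a, were chosen after their values were seen if outside that rule. Some genes that the rule names are not reported here.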

Additional observations from a re-analysis of the deposited data

Results flagged for a closer look

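The change with exercise differed between cell classes for 3 of the tests of a member, by edgeR's test of the class by exercise term. For Ier5 the change in Kupffer-like cells minus that in T-like cells was -0.82 on the log2 scale. For Fos the same difference was 0.77 against T-like cells and 0.86 against LSEC-like cells. Each of the 3 calls was lost without at least 1 of the libraries, as given above, and each kept its direction.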

How the results depend on the processing

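Leaving aside fits of single clusters, all 150 estimates of the members in Kupffer-like cells kept their sign over 15 alternatives each, and 116 of 117 did in T-like cells. In single Kupffer-like clusters 32 of 38 did: Egr1 (0.32), Fos (0.11) and Jund (0.086) were positive in the cluster led by Cxcl13, and Atf3 (0.35), Ier2 (0.061) and Fosb (0.026) in that led by Cxcl9. All 18 kept it in single T-like clusters. In T-like cells as a whole the exception was Jund in T-like cells, at 0.033 without sedentary replicate 2 and -0.13 without sedentary replicate 1, against -0.05 with all libraries. Calls moved more than signs. Shares of all genes called, or separated with 1 library left out, are not given for the alternatives. The counts below therefore do not show whether the members moved more than other genes. In Kupffer-like cells 1 member passed, against 7 with no filter on low counts and 7 with the replicate block, 0 in cells without a hepatocyte UMI, 0 over all kept cells, 0 in the clusters led by BC005537, Cxcl9 or Cxcl13, and 0 to 3 when 1 library was left out (3 without sedentary replicate 1). Over the 15 alternatives without single clusters Egr1 ranged from -0.88 to -0.61, with adjusted p from 2.7e-07 to 0.440 in edgeR or DESeq2, and Fos from -0.92 to -0.19. In the other classes 2 tests passed, against 18 with no filter, 20 with the replicate block, 4 with clusters made with the members, 4 with clusters not centred per library, 7 with the stricter cell filter (1000 UMIs, 500 genes, 10% mitochondrial) and 5 to 16 with 1 library left out. The T-like clusters alone gave 0 (Cxcr6) and 1 (Dapl1). Of differences between classes 3 passed, against 5 with RLE scaling, 6 with no filter, 5 with clusters made with the members, 1 with the stricter filter and 1 to 4 with 1 library left out. Separated shares numbered 8, against 3 without thinning, and 8 to 10 with 1 library left out. Junb in T-like cells kept its call in 13 of 13 alternatives. The labels tie the replicate numbers to no shared animal, day or batch. Same-numbered deviations correlated at 0.34 over 5078 genes, and with 2 pairs this does not settle whether the numbers pair the libraries. Fits by single cluster and without centring were chosen after seeing the data. The cause of each moved count was not tested. Low counts limit Atf3, which was tested in 4 classes.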
